A study of Mus musculus with 2 samples.

Results

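The genes described here are 42 DNA replication and mitosis genes, chosen by name from a list. They were measured in single IL-10-producing CD4+ T cells from the spleen and the small intestine of mice. All 42 were found among the 28009 genes listed in both libraries. They fall into an S-phase list of 18 genes, a G2/M list of 18 genes and 6 chromatin and tubulin genes whose RNA is abundant in dividing cells.

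The cells came from double reporter mice, in which eGFP marks Il10 expression (IL-10eGFP) and mRFP marks Foxp3 expression (Foxp3mRFP). The mice, 8 to 16 weeks of age, had been given anti-CD3 antibody in 2 doses of 15 µg, the first on day 0 and the last on day 2, and cells were taken 4 h later. IL-10+ CD4+ T cells were sorted and captured on the 10x Genomics Chromium platform, which reads poly(A) RNA and tags each captured RNA molecule with a unique molecular identifier (UMI). There were 1 spleen library and 1 small intestine library, both with the reporter alleles and the anti-CD3 treatment, and no untreated library was analysed here. The number of mice pooled in each library is not given in the sources used here, and the sort took Foxp3+ as well as Foxp3-negative cells. The paper describes EDTA, collagenase digestion and a Percoll gradient for cells of the small intestine, and none of these for the spleen. Differences between the tissues can therefore not be told apart from those of cell isolation.

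A cell that divides first copies its DNA in S phase and then separates the copies in mitosis. Replication starts when the MCM2-7 helicase, loaded on DNA by CDC6, is activated and PCNA clamps the polymerases to the template, while thymidylate synthase, thymidine kinase and ribonucleotide reductase supply the nucleotides. Cyclin B with CDK1 then drives entry into mitosis, kinetochores and the spindle align the chromosomes, and the anaphase-promoting complex ends mitosis by degrading the cyclins. E2F factors switch on many replication genes, and the DREAM and MMB complexes act on many mitotic genes through a short promoter element called the CHR. T cells stimulated through CD3 are known to pass from rest into rapid division.

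The libraries held 1738 barcodes from spleen and 1474 from small intestine, of which 1681 and 1408 had less than 6% of their UMIs from mitochondrial genes and were used, with no filter on the cell cycle. The spleen barcodes held 10953899 UMIs, with a median of 5687 per barcode, and the small intestine barcodes held 5574584, with a median of 3689. Levels are given as UMIs per 1000000 UMIs of the group (CPM), so 3 UMIs are 0.274 CPM in spleen and 0.538 CPM in small intestine. No barcode sequence was shared between the libraries. Of 6 CD4 T cell markers (Cd3d, Cd3e, Cd3g, Cd4, Trac and Lck), 5 were listed and none was at 0. They summed to 4324 CPM in spleen and 5162 CPM in small intestine, but all except Cd4 are genes of T cells in general. Cd4 alone was at 188 CPM in cycling (defined below) and 223 CPM in other barcodes of spleen. In small intestine it was at 321 and 409 CPM. The CD8 genes Cd8a and Cd8b1 summed to 12.7 CPM in spleen, where Cd8a was at 0, and to 377 CPM in small intestine. In small intestine 145 barcodes held UMIs of both CD8 genes, and whether these were CD4+ cells was not tested. Markers of B and plasma cells (7.21 and 14.5 CPM), myeloid cells (179 and 207 CPM), erythroid cells (0.274 and 0 CPM) and epithelium (30.0 and 45.2 CPM) were below the sum of these T cell markers in both libraries. With 1 library per tissue no test between tissues was possible, and all intervals below are exact 95% intervals that cover counting error only. Those of CPM and ratios treat each UMI as an independent draw, although many UMIs of these genes came from few barcodes (below). They are therefore too narrow for the sampling of cells, and intervals that do not overlap were not a test.

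The promoters of the genes are shown because short sequence elements, found without using any measured level, differed in frequency between the G2/M and the S-phase list. RefSeq promoter windows of 300 bases on GRCm38.p6 were found for 35 of the 42 genes, and not for Aurkb, Mcm4, H2afz, Gins2, Stmn1, Ccna2 and Tpx2. In each window both strands were searched for CHR letters (TTTGAA or TTCGAA), for CCAAT and for E2F letters (TTTGGCGC, TTTGCCGC, TTTCGCGC or TTTCCCGC), and matches may overlap. Windows of 225 bases around the RefSeq start (200 bases before and 25 from the start on) are printed for 4 genes, 5′ to 3′ on the gene's strand, with the matches in capitals.
Ccnb2 promoter (chr9:70421530-70421754, minus strand): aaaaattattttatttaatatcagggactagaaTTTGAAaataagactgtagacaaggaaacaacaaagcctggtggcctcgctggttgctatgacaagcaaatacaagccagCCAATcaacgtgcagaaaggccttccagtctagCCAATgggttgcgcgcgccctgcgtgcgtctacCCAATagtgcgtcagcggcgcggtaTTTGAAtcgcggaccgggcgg
Cdc20 promoter (chr4:118437319-118437543, minus strand): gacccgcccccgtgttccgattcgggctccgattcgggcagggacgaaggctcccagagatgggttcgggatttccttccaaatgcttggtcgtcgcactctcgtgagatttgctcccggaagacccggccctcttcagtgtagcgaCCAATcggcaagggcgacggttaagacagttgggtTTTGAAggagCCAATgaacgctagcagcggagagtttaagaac
Mcm5 promoter (chr8:75109309-75109533, plus strand): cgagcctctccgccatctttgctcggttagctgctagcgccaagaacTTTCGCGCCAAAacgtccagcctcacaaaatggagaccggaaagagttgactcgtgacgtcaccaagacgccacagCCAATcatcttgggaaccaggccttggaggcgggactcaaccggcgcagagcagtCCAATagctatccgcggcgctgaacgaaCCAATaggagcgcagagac
Mcm6 promoter (chr1:128359681-128359905, minus strand): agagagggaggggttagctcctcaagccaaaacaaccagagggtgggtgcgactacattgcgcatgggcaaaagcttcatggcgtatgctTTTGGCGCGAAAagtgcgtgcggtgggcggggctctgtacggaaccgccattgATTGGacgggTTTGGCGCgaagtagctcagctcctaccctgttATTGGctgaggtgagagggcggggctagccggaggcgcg
Ccnb2 encodes cyclin B2 and Cdc20 the activator of the anaphase-promoting complex, and both windows held CCAAT together with a CHR. Mcm5 and Mcm6 encode helicase subunits, and both windows held E2F letters and CCAAT but no CHR.

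Across the G2/M list 11 of 15 genes with a window (73.3%) had both a CHR and CCAAT. Of the S-phase list 2 of 16 (12.5%) did, and 9.65% of the 27025 genes of the promoter table. Mcm7 and Uhrf1 had 2 windows each. Where a gene had several windows, each element was counted if any of them held it, so both need not lie in the same window. Mki67, Top2a, Cdk1, Cenpa, Cenpf, Aurka, Plk1, Bub1 and Ube2c were the other G2/M genes with both, while Birc5, Ccnb1, Cenpe and Nusap1 had no CHR, and the S-phase genes Mcm2 and Mcm7 had both. The CHR letters alone were found in the windows of 21.7% of all genes, and CCAAT in 41.1%. E2F letters were found in 7 of 16 S-phase genes (43.8%), in 1 of 15 G2/M genes (6.67%, Cdk1) and in 2.61% of all genes. The S-phase genes with E2F letters were Mcm3, Mcm5, Mcm6, Mcm7, Cdc6, 2810417H13Rik and Uhrf1. Tyms, Tk1, Dut, E2f1, Mybl2, Birc5 and Nusap1 had no match of any kind, so the letters do not sort single genes into the lists. A match describes letters only, and the binding of no factor was measured.

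Every one of the 42 genes had a higher level in spleen than in small intestine, and each interval of the ratio lay above 1. How many of all genes were higher, or had such an interval, was not counted. The S-phase list summed to 1704 CPM (1680 to 1729) in spleen and 697 CPM (675 to 719) in small intestine, a log2 ratio of 1.29 (1.24 to 1.34). The G2/M list summed to 1641 and 821 CPM, a log2 ratio of 0.999 (0.952 to 1.05), and the chromatin and tubulin list to 5350 and 2558 CPM, a log2 ratio of 1.06 (1.04 to 1.09). The median log2 ratio over all genes tested was 0.03. Of the 42 genes, 38 were at least 1.5-fold higher in spleen, while 23.8% of the 9318 genes with at least 50 UMIs were. None was that much lower, beside 21.5% of these genes. The median fold over the 42 genes was 2.29. A summed level cannot tell fewer dividing cells from less of this RNA per cell.

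**Figure D1:**
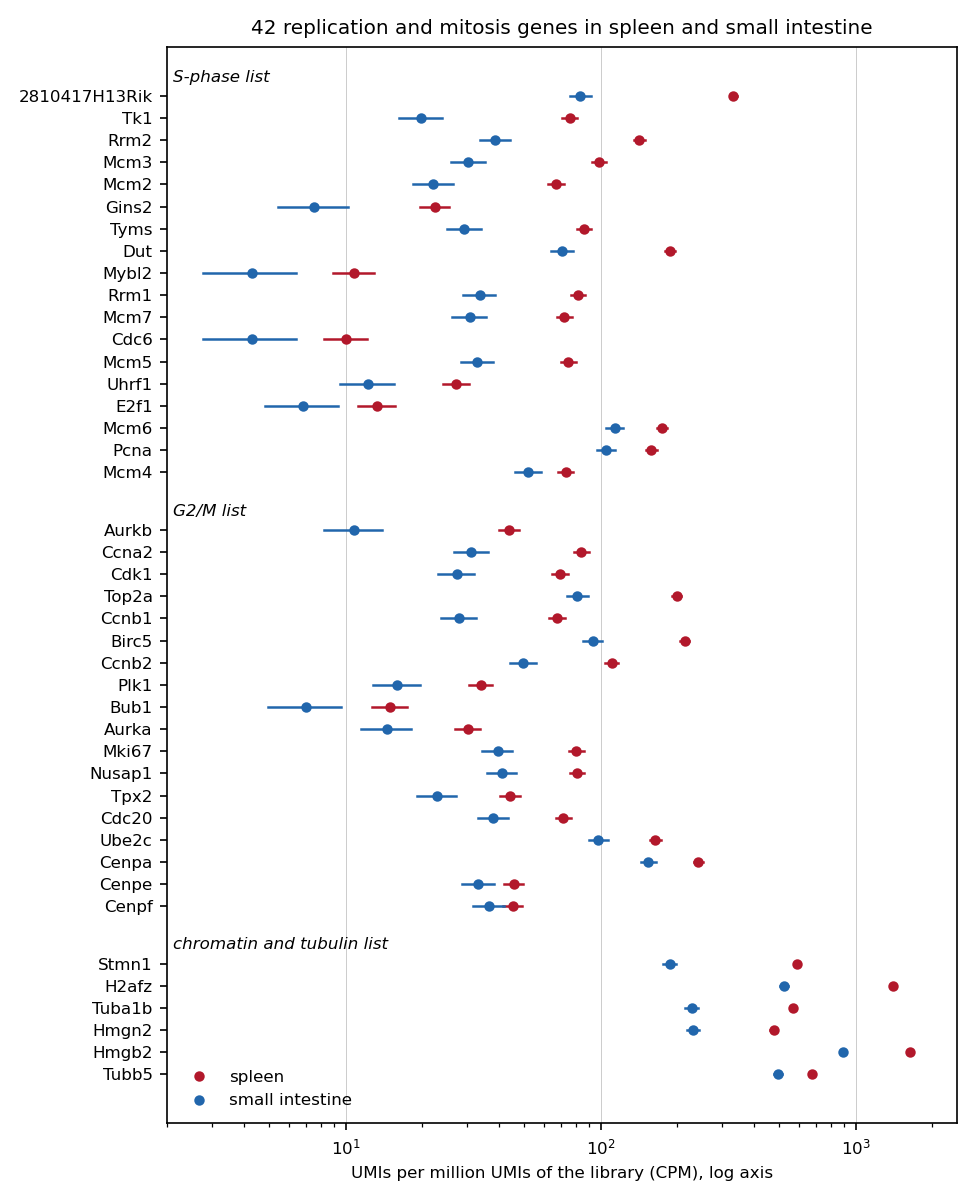
Level of each of the 42 genes in CPM (horizontal log axis) in spleen (red) and small intestine (blue), grouped by list and ordered within a list by the ratio; lines are exact Poisson 95% intervals, which are narrower than the points for abundant genes. Every red point lies to the right of its blue point, and the distance is widest for Aurkb (4.07-fold) and narrowest for Cenpf (1.24-fold).

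Helicase subunits did not share 1 ratio, although they work as a single ring. Mcm3 was at 98.6 CPM in spleen and 30.3 CPM in small intestine, 3.25-fold (2.76 to 3.85). Mcm2 was at 66.7 and 22.1 CPM, 3.02-fold. Mcm7 (72.1 and 30.7 CPM) and Mcm5 (74.8 and 32.8 CPM) had ratios of 2.35 and 2.28. The smallest ratios were those of Mcm6, at 174 and 114 CPM, 1.53-fold (1.40 to 1.68), and Mcm4, at 72.9 and 52.0 CPM, 1.40-fold (1.22 to 1.61). Their intervals did not overlap with those of Mcm2 and Mcm3. Pcna, the sliding clamp, was close to Mcm6, at 158 and 105 CPM and 1.51-fold (1.38 to 1.66). Gins2, a part of the active helicase, was at 22.4 and 7.53 CPM (2.97-fold), and Cdc6, the helicase loader, was the lowest of the 42 in spleen, at 10.0 and 4.31 CPM (2.33-fold).

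The genes of nucleotide supply had larger ratios than Pcna. Tk1, thymidine kinase, was at 75.6 CPM in spleen and 19.7 CPM in small intestine, 3.83-fold (3.14 to 4.72). Rrm2, the small subunit of ribonucleotide reductase, was at 142 and 38.6 CPM, 3.67-fold (3.18 to 4.25). The large subunit Rrm1 had a smaller ratio, at 81.5 and 33.5 CPM and 2.43-fold (2.07 to 2.86). The counting intervals of these subunits did not overlap, but they do not cover the sampling of cells. Tyms, thymidylate synthase, was at 86.0 and 29.2 CPM (2.94-fold), and Dut, which removes dUTP, at 187 and 70.9 CPM (2.64-fold). 2810417H13Rik, annotated as Pclaf and encoding a PCNA-binding protein, was the most abundant gene of the list in spleen, at 331 CPM against 83.4 CPM, and had its largest ratio, 3.97-fold (3.61 to 4.38). The regulators were low in both libraries. Uhrf1, which helps to copy DNA methylation, was at 27.2 and 12.2 CPM (2.23-fold). The transcription factors E2f1 (13.2 and 6.82 CPM, 1.94-fold) and Mybl2 (10.8 and 4.31 CPM, 2.50-fold) were each captured fewer than 40 times in small intestine.

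In the G2/M list the mitotic kinases had the widest spread of ratios. Aurkb, the kinase of the chromosomal passenger complex, was at 43.8 CPM in spleen and 10.8 CPM in small intestine, 4.07-fold (3.11 to 5.42), the largest of the 42. Aurka, the spindle pole kinase, was at 30.1 and 14.5 CPM, 2.07-fold (1.62 to 2.68). Birc5, survivin, is a partner of Aurkb in the same complex and had a smaller ratio, at 214 and 93.3 CPM and 2.29-fold (2.09 to 2.53). Plk1, polo-like kinase, and Bub1, a spindle checkpoint kinase, both had a ratio of 2.13, at 34.0 and 15.97 CPM and at 14.9 and 6.996 CPM.

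The cyclins and their kinase had similar ratios. Ccna2, cyclin A2, was at 84.1 and 31.0 CPM (2.71-fold, 2.30 to 3.21), Ccnb1, cyclin B1, at 67.7 and 27.8 CPM (2.44-fold, 2.05 to 2.92), Ccnb2 at 111 and 49.7 CPM (2.22-fold, 1.95 to 2.54) and Cdk1 at 69.2 and 27.3 CPM (2.54-fold, 2.13 to 3.04). These intervals overlapped, so no order among the cyclins is read from them. Of the genes that end mitosis, Ube2c had a smaller ratio than the cyclins and Cdk1. The interval of Cdc20 overlapped with those of Ccnb1, Ccnb2 and Cdk1. Cdc20 was at 71.5 and 37.9 CPM, 1.89-fold (1.62 to 2.21), and Ube2c, the ubiquitin-conjugating enzyme of the anaphase-promoting complex, was at 164 and 97.9 CPM, 1.67-fold (1.52 to 1.85).

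Centromere genes had the smallest ratios of the list. Cenpa, the centromeric histone H3, was the most abundant G2/M gene in both libraries, at 242 and 154 CPM, 1.57-fold (1.46 to 1.70). The kinetochore genes Cenpe (45.6 and 33.2 CPM) and Cenpf (45.2 and 36.4 CPM) had ratios of 1.37 (1.16 to 1.63) and 1.24 (1.05 to 1.47). Top2a, which untangles DNA, was at 199 and 81.1 CPM (2.45-fold), and Mki67, which coats mitotic chromosomes and is a common proliferation marker, at 80.4 and 39.5 CPM (2.04-fold). The spindle genes Nusap1 (80.8 and 41.1 CPM, 1.97-fold) and Tpx2 (44.1 and 22.8 CPM, 1.94-fold) were close to each other.

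Among the chromatin and tubulin genes, Stmn1, a protein that destabilises microtubules, had the largest ratio, at 591 and 187 CPM and 3.16-fold (2.96 to 3.38). H2afz, histone H2A.Z, was at 1400 and 524 CPM (2.67-fold), Tuba1b, an alpha-tubulin, at 571 and 227 CPM (2.51-fold) and Hmgn2, a nucleosome-binding protein, at 477 and 230 CPM (2.07-fold). Hmgb2, a DNA-bending protein, was the most abundant of the 42 in both libraries, at 1635 and 892 CPM (1.83-fold), and Tubb5, a beta-tubulin, was at 676 and 498 CPM, 1.36-fold (1.30 to 1.42). Tuba1b, Tubb5, Hmgn2, Hmgb2 and H2afz have near-identical relatives or pseudogenes, so their levels are uncertain where reads could map to both.

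The share of barcodes with a UMI of a gene depends on depth, so barcodes were also thinned at random to 2000 UMIs, which left out 26 shallower barcodes in spleen and 152 in small intestine. After thinning, 41 of the 42 genes had a larger share in spleen, and for 35 of them the intervals did not overlap. These counts were not made over all genes, so how far the 42 stand out by them was not tested. Stmn1 was found in 32.4% of thinned barcodes in spleen and 10.6% in small intestine (42.5% and 13.5% before thinning). For 2810417H13Rik these shares were 20.8% and 5.41% (30.6% and 7.67%). Pcna differed far less, with 18.6% and 17.7% after thinning and 38.6% and 28.1% before. For Hmgb2 the thinned shares were 56.7% and 58.8%, against 76.7% and 73.8% before thinning, and no order was read from them since the CPM went the other way.

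The difference between tissues was smaller among barcodes of like depth, an analysis chosen after seeing the data. For barcodes of 2000 to under 4000 UMIs (391 in spleen and 696 in small intestine) the log2 ratio was 0.26 for the S-phase list and 0.74 for the G2/M list. For 4000 to under 8000 UMIs (820 and 501 barcodes) it was 0.48 and 0.07, the latter with an interval of -0.00 to 0.14, and from 8000 UMIs on (444 and 59 barcodes) it was 0.42 and -0.01 (-0.09 to 0.07). So in the deeper barcodes the S-phase list was higher in spleen, while the G2/M list had no difference that counting error could show. The chromatin and tubulin list stayed higher in spleen in all 3 ranges, with log2 ratios of 0.56, 0.32 and 0.31. Total UMIs were themselves higher in barcodes with many S-phase and G2/M UMIs (below), and what sets the total was not tested.

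Gene by gene, the share of S-phase genes at least 1.5-fold higher in spleen was above that of all genes up to 8000 UMIs and near it from there on, and the share of G2/M genes was above it in the lowest range alone. From 4000 to under 8000 UMIs, 8 of 15 S-phase genes tested and 2 of 18 G2/M genes were at least 1.5-fold higher in spleen, beside 20.8% of all genes tested there. From 8000 UMIs on, 4 of 18 S-phase and 2 of 18 G2/M genes were, beside 24.6% of all genes. From 2000 to under 4000 UMIs, 3 of 10 S-phase and 5 of 9 G2/M genes were, beside 14.9%. From the lowest to the highest range Stmn1 had log2 ratios of 1.35, 0.90 and 0.50, and 2810417H13Rik 1.51, 0.86 and 0.59. In the upper ranges Aurkb had 0.98 and 0.66 and Tk1 0.72 and 0.97, while in the lowest range Aurkb had 8 and 4 UMIs and Tk1 20 and 15, under the 50 UMIs asked of a comparison. Cenpf had 0.24 (-0.66 to 1.10), -0.27 and -0.90, and Pcna had -0.60, 0.06 (-0.16 to 0.29) and 0.23 (-0.04 to 0.52). For these genes no range had an interval that lay above 0.

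The ratio was also compared between T cells with much and with little Ccl5. Ccl5, a chemokine of effector and memory T cells, took 0.268% of all UMIs in spleen and 4.70% in small intestine. Barcodes with at least 10 Ccl5 UMIs per 10000 are called Ccl5-high here, 256 in spleen and 1301 in small intestine, and the others Ccl5-low, 1425 and 107. Among Ccl5-high barcodes the tissues differed nearly as much as over all barcodes, with log2 ratios of 1.24 for the S-phase and 1.02 for the G2/M list. This group is 1301 of the 1408 small intestine barcodes, so that side of the ratio could change little. Its median depths, 5185.5 UMIs in spleen and 3679 in small intestine, were not matched. Among Ccl5-high barcodes 34 of 39 genes tested were at least 1.5-fold higher in spleen, beside 19% of all genes tested. Among Ccl5-low barcodes the ratios were 0.28 and 0.58, and 11 of 42 genes were at least 1.5-fold higher, beside 20% of all genes tested, and E2f1 was at least 1.5-fold lower (log2 ratio -1.06), as were 23.2% of all genes. The smaller ratios rest on the 107 small intestine barcodes, of which 6 held 50% of their UMIs of both lists. The cycling shares defined below were 34.8% in spleen and 14.2% in small intestine among Ccl5-high barcodes, and 33.1% and 18.7% among Ccl5-low barcodes. Without the barcodes holding a Foxp3 UMI the ratios were 1.16 and 0.84, and without these among Ccl5-low barcodes 0.21 and 0.26. In small intestine only 29 of 1408 barcodes held a Foxp3 UMI, so leaving them out could change that side little.

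**Figure D2:**
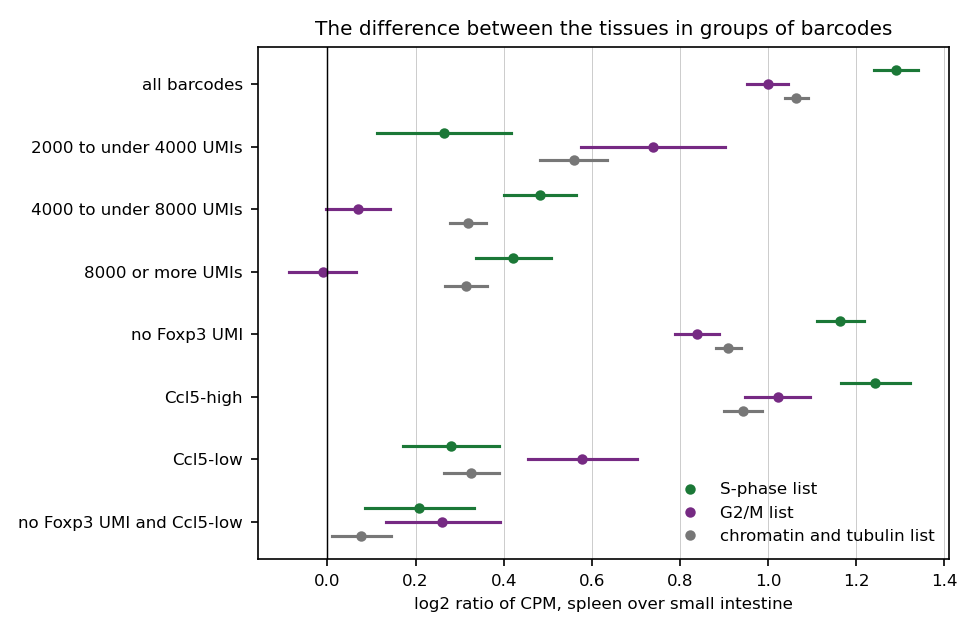
Log2 ratio of CPM, spleen over small intestine (horizontal axis), of the S-phase list (green), the G2/M list (purple) and the chromatin and tubulin list (grey) over all barcodes and in groups of barcodes (vertical axis); lines are exact 95% intervals for counting error. The ratios of about 1 over all barcodes hold in Ccl5-high barcodes and in those with no Foxp3 UMI, and are lower in the ranges of UMIs and in Ccl5-low barcodes.

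Most UMIs of both lists came from few barcodes. In spleen 125 of 1681 barcodes held 50% of the S-phase UMIs and 103 held 50% of the G2/M UMIs, and in small intestine 72 and 29 of 1408 did. No S-phase UMI was found in 15.2% of spleen and 29.9% of small intestine barcodes, and no G2/M UMI in 38.1% and 60.01%. Barcodes were therefore called high for a list at 10 or more of its UMIs per 10000, which gave 4 classes: neither, S-phase only, both and G2/M only. These classes are ranges of a continuous score, not cell types. In spleen 147 barcodes lay from 10 to under 20 S-phase UMIs per 10000 and 353 from 5 to under 10, and in small intestine 94 and 324 did, so the S-phase limit runs through many barcodes. The G2/M limit runs through fewer, with 92 and 112 barcodes in these ranges in spleen and 24 and 105 in small intestine.

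**Figure D3:**
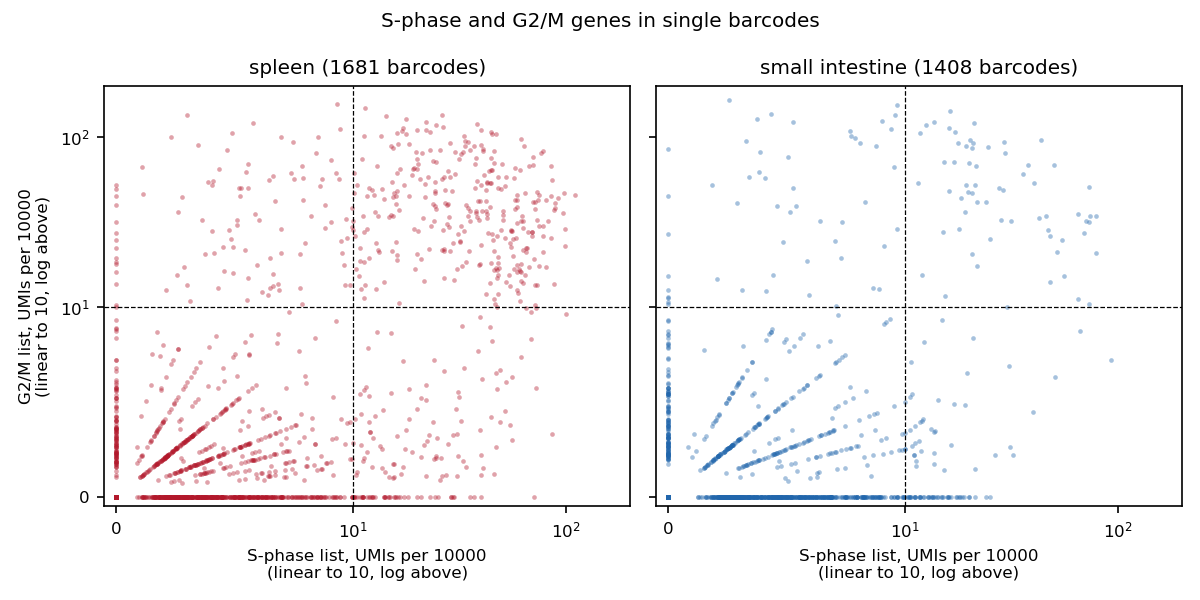
Each point is a barcode of spleen (left, red) or small intestine (right, blue), with S-phase UMIs per 10000 on the horizontal and G2/M UMIs per 10000 on the vertical axis, both linear up to 10 and logarithmic above; dashed lines mark 10 per 10000. The upper right part, high for both lists, holds 308 spleen and 64 small intestine barcodes, and most barcodes lie at the lower left.

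In spleen 561 of 1681 barcodes were high for at least 1 list and are called cycling here, a share of 33.4% (31.1 to 35.7). In small intestine 205 of 1408 were, a share of 14.6% (12.8 to 16.5). In barcodes thinned to 2000 UMIs, where 2 UMIs of a list count as high, the shares were 44.7% and 26.3%. The class high for both lists differed most, with 308 barcodes (18.3%) in spleen and 64 (4.55%) in small intestine. The S-phase only class held 148 (8.80%) and 89 (6.32%) barcodes, and the G2/M only class 105 (6.25%) and 52 (3.69%). After thinning the S-phase only class held 17.4% and 14.8% of barcodes. The class high for both held 20.2% and 6.77%, and the G2/M only class 7.01% and 4.70%. The higher shares after thinning therefore came mostly from the S-phase only class. Cycling names a range of the scores, and division itself was not measured. Without thinning, the small intestine S-phase only class had a median of 14.3 chromatin and tubulin UMIs per 10000, against 10.0 in neither and 135 in both. Its replication-dependent histone genes, at 267 CPM (216 to 325), overlapped with the 218 CPM (204 to 232) of neither. Its 40 other replication genes were higher, at 1569 and 683 CPM. Within like ranges of depth the shares were 14.3% and 9.48% from 2000 to under 4000 UMIs, 24.1% and 15.8% from 4000 to under 8000, and 67.6% and 55.9% from 8000 on.

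No group of barcodes that should lack these genes is reported here as a background. Free RNA that enters every droplet was therefore not measured, and its part in the class calls was not tested.

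Within the classes the S-phase score was higher in spleen. The median over barcodes high for both lists was 37.8 S-phase UMIs per 10000 in spleen and 24.5 in small intestine, whereas the median of G2/M UMIs was 37.1 and 47.2. The S-phase only class had medians of 20.04 and 13.5 S-phase UMIs per 10000. Barcodes high for both lists were also the deepest, with median totals of 9675.5 and 6341.5 UMIs, against 4897.5 and 3616 in barcodes high for neither.

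Each gene was then described in classes made without that gene. Since the 2 lists define the classes, these levels are a description. In spleen 7 S-phase genes had their highest level in the S-phase only class and 11 in the class high for both, and 7 G2/M genes had it in the G2/M only class and 11 in the class high for both. In small intestine 16 of 18 S-phase genes were highest in the class high for both, and 12 of 18 G2/M genes in the G2/M only class. Of the latter, Mki67, Birc5, Cenpe, Cenpf, Aurka, Plk1 and Tpx2 had intervals that overlapped with those of the class high for both. The intervals of Mcm2, Gins2, Cdc6, E2f1 and Mybl2 overlapped with those of the S-phase only class. Some intervals overlapped in spleen too, so these counts are rankings.

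In spleen all 6 helicase genes, Mcm2 to Mcm7, and E2f1 had their highest level in the S-phase only class. Mcm5 (180 and 179 CPM) and Mcm7 were about level with the class high for both, and the intervals of Mcm3 (250 and 221 CPM) overlapped. Mcm6 was at 94.4 CPM in barcodes high for neither list, 447 CPM in the S-phase only class, 273 CPM in the class high for both and 99.6 CPM in the G2/M only class. Rrm1, Rrm2, Tyms and Tk1 of nucleotide supply were highest in the class high for both, with intervals apart from the S-phase only class, and Rrm2 was at 6.47, 135, 429 and 32.3 CPM in the same 4 classes. Dut was about level between these classes, at 362 CPM (325 to 402) and 398 CPM (376 to 420). 2810417H13Rik was at 18.6, 264, 1030 and 293 CPM, with overlapping intervals in the S-phase only and G2/M only classes. Pcna, at 59.2, 296, 334 and 51.3 CPM, kept a higher level outside the cycling classes, as did Mcm6. E2f1 was at 47.3 CPM in the S-phase only class and had 0 UMIs in the G2/M only class.

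The G2/M genes fell into those that peaked in the class high for both lists and those that peaked in the G2/M only class, which lay below the S-phase limit but had a median of 5.56 S-phase UMIs per 10000 in spleen, against 3.02 in barcodes high for neither list. Ccna2 was at 2.66, 15, 255 and 113 CPM in the 4 spleen classes, and Cdk1 at 1.83, 27.8, 206 and 101 CPM. Ccnb1 was at 3.66, 11.8, 172 and 238 CPM, Cdc20 at 4.32, 11.4, 167 and 306 CPM, and Cenpa at 52.4, 107, 519 and 1060 CPM. Ccnb2, Cenpe, Cenpf and Ube2c were the other spleen genes highest in the G2/M only class, so the B cyclins, Cdc20 and Ube2c were on one side and Ccna2, Cdk1 and Top2a on the other. In small intestine Ccnb1 (1.77, 5.49, 141 and 337 CPM) and Cdc20 (1.77, 5.37, 208 and 449 CPM) had the same order of classes. Birc5 was at 614 CPM in the class high for both and 435 CPM in the G2/M only class of spleen, and at 733 and 772 CPM in small intestine.

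**Figure D4:**
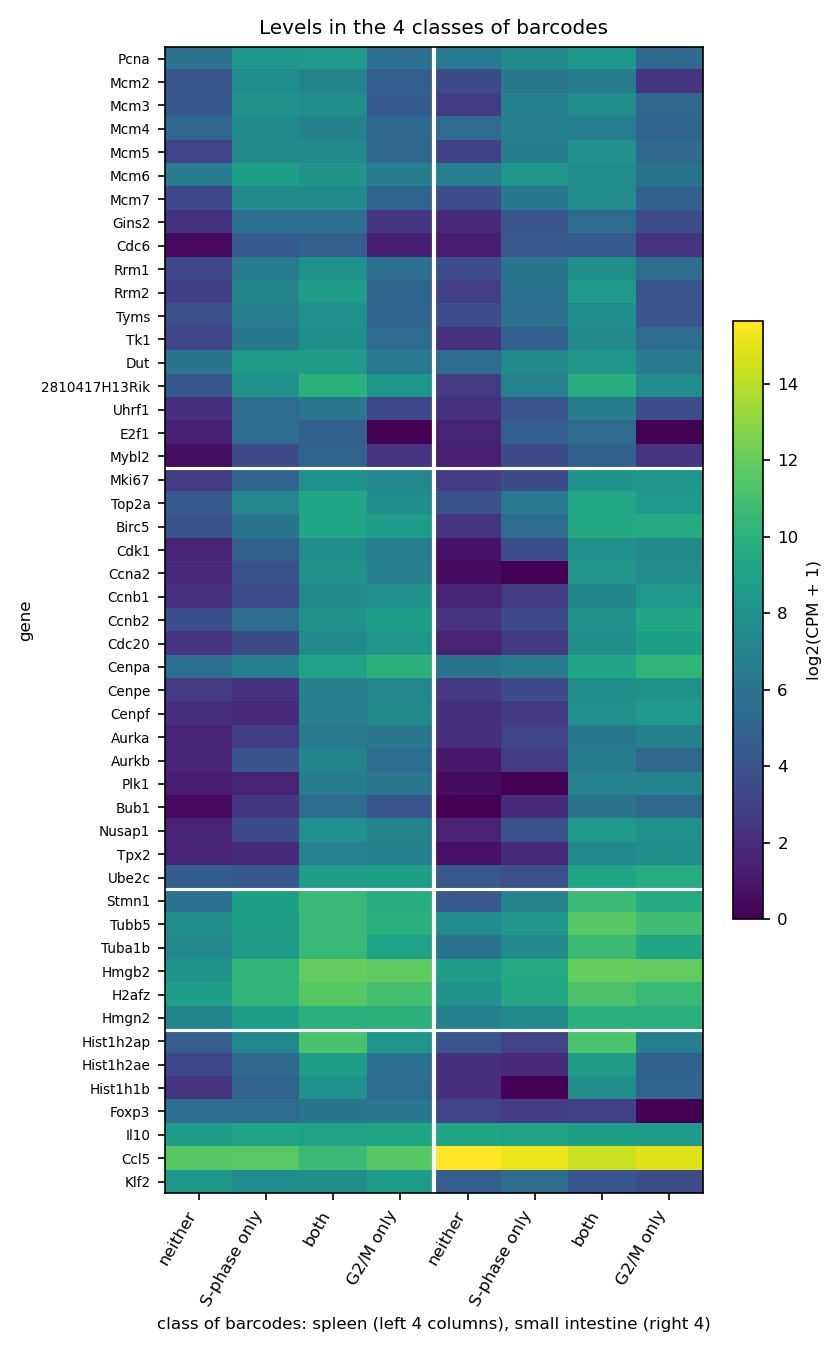
Log2 of CPM + 1 (colour) of the 42 genes and of 7 other genes (rows) in the 4 classes of barcodes (columns), spleen on the left and small intestine on the right; each of the 42 genes is shown in classes made without it. Each S-phase gene has its highest level in the S-phase only class or the class high for both lists, and each G2/M gene in the class high for both or the G2/M only class.

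The chromatin and tubulin genes were not used to make the classes, and all 6 were higher in cycling than in other barcodes of both tissues. Their log2 ratios went from 2.50 (H2afz) to 4.33 (Stmn1) in spleen and from 2.60 (Hmgn2) to 5.50 (Stmn1) in small intestine. The share of all genes higher in cycling barcodes is not reported here. Cycling barcodes were also deeper, with medians of 8276 against 4897.5 UMIs in spleen and 4489 against 3616 in small intestine. Hmgb2 was at 275, 1211, 3944 and 3451 CPM in the 4 spleen classes and at 441, 745, 3988 and 3792 CPM in those of small intestine. In barcodes high for both lists the tissues were close for 3 of these genes. Stmn1 was at 1563 and 1592 CPM, Hmgb2 at 3944 and 3988 CPM and Hmgn2 at 996 and 1006 CPM there. Tubb5 was lower in spleen in that class, at 1573 CPM against 3025 CPM, a log2 ratio of -0.94 (-1.03 to -0.86), although it was higher in spleen over all barcodes. Outside the cycling classes Stmn1 (61.5 and 19.9 CPM, log2 ratio 1.63) and Tuba1b (150 and 66.4 CPM, 1.17) were still higher in spleen, and Hmgb2 was lower (275 and 441 CPM, -0.68).

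Foxp3 marks regulatory T cells. A Foxp3 UMI was found in 344 spleen barcodes, whose median depth was 7964 UMIs, against 5204 in the 1337 others. Without matching for depth, the spleen barcodes with a Foxp3 UMI had higher levels of 41 of the 42 genes. How many of all genes were higher was not counted. Centred on the median of all genes tested, the log2 ratio over the S-phase and G2/M lists was 0.45. The S-phase list was at 2176 CPM with and 1526 CPM without a Foxp3 UMI, a log2 ratio of 0.51 (0.47 to 0.56), and the G2/M list at 2041 and 1490 CPM, 0.45 (0.41 to 0.50). At least 1.5-fold higher were 13 of 42 genes, beside 5.47% of the 8503 genes tested, and 0 that much lower, beside 7.06%. Mybl2 had the largest log2 ratio, at 17.0 and 8.43 CPM and 1.01 (0.46 to 1.56). It was followed by Uhrf1 (39.0 and 22.8 CPM, 0.77), Cdc6 (14.3 and 8.43 CPM, 0.76), Ccnb1 (95.5 and 57.2 CPM, 0.74), Rrm1 (114 and 69.4 CPM, 0.71) and Rrm2 (194 and 122 CPM, 0.67), whose intervals overlapped. Mcm4 did not share the difference, at 71.2 and 73.6 CPM, -0.05 (-0.28 to 0.18), and the intervals of Nusap1 (85.2 and 79.1 CPM, 0.11), Tpx2 (46.6 and 43.1 CPM, 0.11), Bub1, Cenpf, Plk1, Gins2 and E2f1 also held 0.

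Cycling barcodes were 48.8% (43.4 to 54.3) of spleen barcodes with a Foxp3 UMI and 29.4% (27.0 to 31.9) of the others, and 56.9% and 41.5% after thinning to 2000 UMIs. The class high for both lists made up 31.1% and 15.03% of them, while the S-phase only shares were close, at 8.72% and 8.83%. After thinning the S-phase only shares were 12.5% (9.22 to 16.5) and 18.7% (16.6 to 20.9), lower with a Foxp3 UMI. A Foxp3 UMI is found more often in deep barcodes, so the comparison was repeated in 3 depth groups of about equal size. Over both lists the log2 ratio was 0.48 (0.45 to 0.51) in all barcodes, and 0.51, -0.09 and 0.04 from the shallowest to the deepest group. With the mRFP transcript of the reporter, found in 125 spleen barcodes, the ratio was 0.53 and the cycling share 54.4%. Barcodes with mRFP were about as deep as those with a Foxp3 UMI, with a median of 7847 UMIs, and were not compared within depth groups. Of the 125, only 76 also had a Foxp3 UMI, so a barcode without a Foxp3 UMI cannot be taken as a Foxp3-negative cell.

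In small intestine a Foxp3 UMI was found in 29 barcodes only. The S-phase list was at 1242 CPM with and 681 CPM without it, a log2 ratio of 0.87 (0.65 to 1.08), and the G2/M list at 423 and 833 CPM, -0.98 (-1.35 to -0.63). Rrm2 was at 134 and 35.8 CPM (1.91) and Mcm5 at 76.8 and 31.6 CPM (1.28), while Ccnb1, Plk1 and Nusap1 had no UMI in these 29 barcodes. A single barcode held 149 of their 260 UMIs of both lists, so these values describe it more than the group. Of 37 genes tested 12 were at least 1.5-fold higher and 12 lower, beside 19.7% and 23.2% of all genes. The cycling share was 13.8% (3.89 to 31.7), 4 barcodes, against 14.6% in the others.

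The Ccl5-high state was compared with the Ccl5-low state within each tissue. In spleen, with median depths of 5185.5 and 5746 UMIs, the S-phase list was at 1479 and 1739 CPM, a log2 ratio of -0.23 (-0.30 to -0.17), and the G2/M list at 1611 and 1645 CPM, -0.03 (-0.09 to 0.03). Only Mybl2 (4.08 and 11.8 CPM, -1.54) and Cdc6 (5.43 and 10.8 CPM, -0.99) of the 42 genes were at least 1.5-fold lower, beside 9.81% of all genes tested, and none was that much higher, beside 7.8%. Mcm6 was slightly higher in Ccl5-high barcodes, at 204 and 169 CPM (0.27, 0.09 to 0.45). The cycling shares were 34.8% and 33.1%, and 50.2% and 43.7% after thinning. In the 3 depth groups the log2 ratio over both lists was 0.41, 0.43 and -0.06, so its direction was not stable.

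In small intestine the S-phase list was at 625 CPM in Ccl5-high and 1432 CPM in Ccl5-low barcodes, a log2 ratio of -1.20 (-1.32 to -1.08), and the G2/M list at 793 and 1103 CPM, -0.48 (-0.60 to -0.34), at median depths of 3679 and 3846 UMIs. Of 37 genes with at least 50 UMIs, 25 were at least 1.5-fold lower in Ccl5-high barcodes, beside 18.4% of all genes tested, for which the median log2 ratio was -0.14. None was that much higher, beside 12.5%. Rrm2 was at 27.4 and 153 CPM (-2.48), Mcm3 at 21.9 and 117 CPM (-2.41) and Uhrf1 at 10.0 and 34.2 CPM (-1.77). Of the G2/M list Cdc20 was at 38.2 and 34.2 CPM (0.16, -0.55 to 0.97) and Cenpa at 152 and 171 CPM (-0.17, -0.49 to 0.18), and the intervals of Mki67, Ccna2, Ccnb2, Cenpe, Cenpf, Aurka, Aurkb and Plk1 also held 0. Just 6 of the 107 Ccl5-low barcodes held 50% of that group's 1262 UMIs of both lists. The medians over barcodes were close, at 4.63 and 5.04 UMIs of both lists per 10000, and so were the cycling shares, at 14.2% (12.4 to 16.2) and 18.7% (11.8 to 27.4). In the 3 depth groups the log2 ratio over both lists was 1.11, 0.42 and -0.75, so the lower level of the Ccl5-high state was seen in the deepest group alone, and without the deepest 5% of barcodes it was 0.11 against -0.84.

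Il10 itself was set against the 42 genes by counting its UMIs in barcodes thinned to 2000 UMIs. In spleen 911 barcodes had 0, 373 had 1 and 371 had 2 or more Il10 UMIs. The S-phase list was at 1620, 1786 and 1834 CPM in these groups, and the G2/M list at 1663, 1654 and 1601 CPM. The log2 ratio of 2 or more against 0 was 0.18 (0.13 to 0.23) for the S-phase and -0.05 (-0.11 to -0.00) for the G2/M list. Mcm2 (76.6 and 57.7 CPM, 0.41), Mcm6 (203 and 157 CPM, 0.37) and Rrm1 (89.7 and 70.5 CPM, 0.35) were higher with Il10, and Nusap1 (62.8 and 91.5 CPM, -0.54), Cenpe (37.7 and 49.6 CPM, -0.40) and Cenpf (39.7 and 50.7 CPM, -0.35) were lower. None of the 42 genes was at least 1.5-fold higher, beside 3.56% of all genes tested, and only Cdc6 was that much lower (6.93 and 10.7 CPM), beside 4.16%. Cycling shares were 30.2%, 36.7% and 38.3%, and 39.5%, 50.4% and 51.5% after thinning. Foxp3 was also higher with Il10, at 84.3 and 38.0 CPM, and without the barcodes holding a Foxp3 UMI the ratio over both lists was -0.01 (-0.05 to 0.04), against 0.07 with them. In the 3 depth groups the ratio over both lists was 0.31, -0.25 and -0.01, and that of the G2/M list 0.48, -0.55 and -0.10, so the direction was not stable, while the S-phase list had 0.13, 0.07 and 0.08. Other thinning draws gave 0.14 and 0.10 over both lists, and 3 or more Il10 UMIs counted without thinning gave 0.73.

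In small intestine 525, 348 and 383 barcodes had 0, 1 and 2 or more Il10 UMIs, and the S-phase list was at 798, 667 and 628 CPM. The G2/M list was at 836, 999 and 702 CPM, which is not a steady order. For 2 or more against 0 the log2 ratios were -0.35 (-0.46 to -0.23) and -0.25 (-0.36 to -0.14). At least 1.5-fold lower were 5 of 36 genes, beside 3.3% of all genes tested, and 0 that much higher, beside 3.22%. They were 2810417H13Rik (55.0 and 110 CPM, -0.99), Mcm2 (16.4 and 28.7 CPM), Ccnb1 (17.1 and 29.1 CPM), Mcm3 (24.6 and 40.2 CPM) and Uhrf1 (10.1 and 15.5 CPM). Cycling shares were 14.7%, 15.8% and 12.01%, with overlapping intervals, and 26.3%, 27.0% and 25.6% after thinning. Cd8a moved with these groups, at 70.2 CPM with 2 or more and 318 CPM with 0 Il10 UMIs. The 145 small intestine barcodes with Cd8a and Cd8b1 UMIs were all Ccl5-high and had a cycling share of 22.8% (16.2 to 30.5), above the 13.1% (11.3 to 15.2) of the other Ccl5-high barcodes, at median depths of 4468 and 3604 UMIs. After thinning these shares were 33.6% (25.9 to 41.9) and 24.3% (21.7 to 27.0), with overlapping intervals. Over both lists the log2 ratio was -0.30 (-0.38 to -0.22), and -0.24 without the barcodes holding both CD8 genes. It rested on few barcodes, since 14 of the 383 held 50% of their UMIs of both lists, and on the thinning draw. Other draws gave -0.70 and -0.57, and without the deepest 5% of barcodes it was 0.17.

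**Figure D5:**
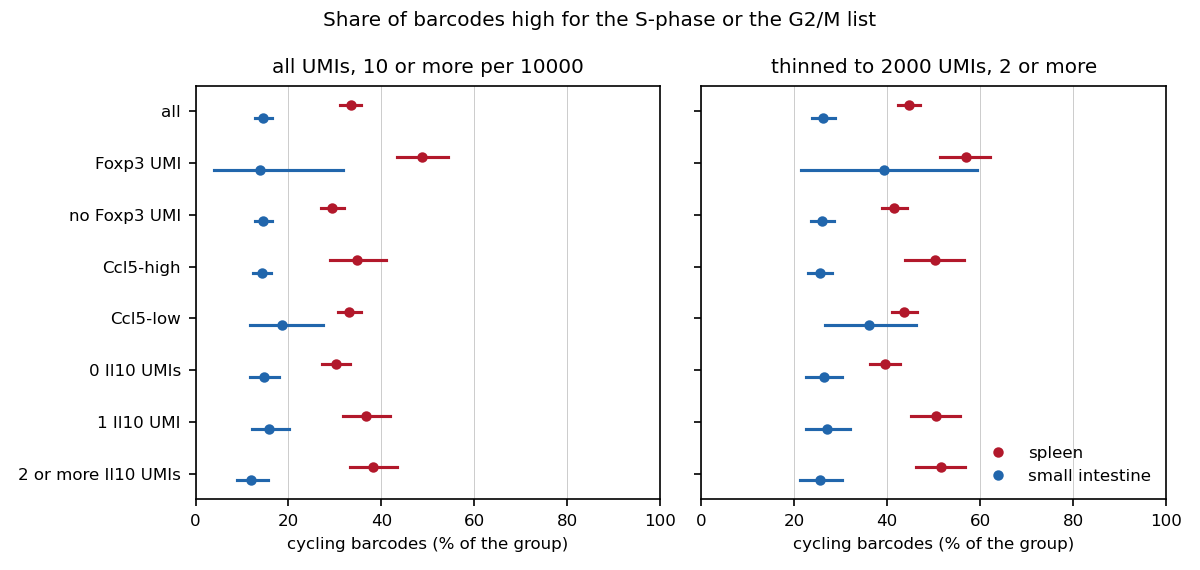
Share of cycling barcodes in percent of each group (horizontal axis) for groups by Foxp3 UMI, Ccl5 state and Il10 UMIs (vertical axis), spleen in red and small intestine in blue, at all UMIs (left) and after thinning to 2000 UMIs (right); lines are exact binomial 95% intervals. Spleen shares lie from 29.4% to 48.8% and small intestine shares from 12.01% to 18.7% on the left, and all shares are higher on the right, where the call of a high barcode needs 2 UMIs.

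Other genes of the same processes, from lists beside the 42, were also higher in spleen for the most part over all barcodes. Of 40 other replication genes, 29 were at least 1.5-fold higher in spleen and 0 lower, beside 23.8% and 21.5% of all genes tested, with a median log2 ratio of 0.98. Ung, which removes uracil from DNA, was highest (23.5 and 4.13 CPM, 2.51), followed by the polymerase subunits Pole2 (9.68 and 1.79 CPM, 2.43) and Pold2 (40.5 and 10.9 CPM, 1.89). Rpa2 and Rpa1, which coat single-stranded DNA, were lower in spleen (91.0 and 121 CPM, -0.41, and 76.3 and 86.3 CPM, -0.18), and Gins1 was about level (17.0 and 16.3 CPM, 0.06, -0.31 to 0.43). Of 44 other mitosis genes tested, 38 were at least 1.5-fold higher and 1 lower, with a median of 0.96. The lower one was Lmnb1, lamin B1 of the nuclear envelope, at 256 and 496 CPM (-0.95), and Nuf2 of the kinetochore was the highest (26.2 and 8.25 CPM, 1.67). Kif2c (1.53) and Esco2 (1.46) came next, and Ect2 (0.35, -0.19 to 0.93) and Bub3 (0.42) were the lowest after Lmnb1. Within most classes of barcodes these sums were lower in spleen. In the neither, S-phase only, both and G2/M only classes the other replication genes had log2 ratios of -0.44, 0.76, -0.16 and -0.52. The other mitosis genes had -0.43, 0.04 (-0.12 to 0.20), -0.28 and -0.54.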

How the data were processed

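IL-10+ CD4+ T cells sorted from the spleen or the small intestine were measured with the 10x Genomics Chromium platform, 1 library per tissue. The deposited files hold UMI counts per gene and barcode, which the authors made with Trimmomatic and Cell Ranger on mm10 (versions are not given in the sources used here) and did not normalize. Barcodes with a mitochondrial share below 6% were kept, and no cell-cycle filter was used, unlike in the study. Counts were summed over the barcodes of a group and divided by the group's UMIs (CPM). CPM and ratios have exact Poisson and binomial 95% intervals, and shares have Clopper-Pearson intervals. There were no replicate libraries, so no p-value was computed and intervals cover counting error only. Genes with at least 50 UMIs over both groups were compared with a 1.5-fold limit, and percentages of all genes refer to these.

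S-phase and G2/M scores were UMIs of the list per 10000 UMIs of the barcode. Barcodes were thinned to 2000 UMIs by drawing without replacement. Scrublet called 8 spleen (0.476%) and 1 small intestine (0.0710%) barcodes, too few to be taken as a working call, and these were kept, so doublets remain. All 42 genes were named, with the 3 highest and 3 lowest of each other list between the tissues and the 10 genes outside the lists with the largest ratio in cycling against other barcodes, of which 1 is not reported here. The members and lists were chosen with earlier results of these data known. Promoters came from RefSeq (GRCm38.p6). The ranges of UMIs, the splits by Ccl5 and Foxp3 within other comparisons and the mRFP call were chosen after seeing the data. The code for ratios and intervals was run on simulated Poisson counts. These do not cluster in barcodes, so the coverage of the intervals in the real data was not tested. Python 3.11.15, numpy 2.4.6, pandas 2.3.3, scipy 1.17.1, scanpy 1.11.5 and matplotlib 3.10.9 were used.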

Additional observations from a re-analysis of the deposited data

Results flagged for a closer look

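Of 19 contrasts measured in both tissues, 4 had opposite signs in spleen and small intestine with both counting intervals away from 0. The difference between the tissues was not tested, since each had 1 library. The G2/M list was higher with a Foxp3 UMI in spleen (log2 ratio 0.45, 0.41 to 0.50) and lower in small intestine (-0.98, -1.35 to -0.63), where 29 barcodes held a Foxp3 UMI. In spleen its ratio was 0.77, 0.06 (-0.07 to 0.19) and 0.005 (-0.04 to 0.05) from the shallowest to the deepest of 3 depth groups. In small intestine 1 of the 29 barcodes held 149 of their 260 UMIs of the S-phase and G2/M lists. The S-phase list was higher with 2 or more than with 0 Il10 UMIs in spleen (0.18, 0.13 to 0.23) and lower in small intestine (-0.35, -0.46 to -0.23). In 3 depth groups it had 0.13, 0.07 and 0.08 in spleen and -0.12, -0.20 and -0.36 in small intestine. In both tissues only the interval of the deepest group lay away from 0. Over the S-phase and G2/M lists the small intestine ratio was -0.30, and 0.17 without the deepest 5% of barcodes. In spleen it was 0.07, and -0.0059 without barcodes holding a Foxp3 UMI. The chromatin and tubulin list had the same signs in the Il10 comparison, with 0.045 (0.016 to 0.074) in spleen and -0.14 (-0.20 to -0.08) in small intestine, but in spleen its ratio was 0.19, -0.35 and 0.02 in 3 depth groups. Il10 was higher in cycling than in other barcodes of spleen, at 531 and 427 CPM (log2 ratio 0.31, 0.23 to 0.39), and lower in those of small intestine, at 469 and 605 CPM (-0.37, -0.51 to -0.23). This sets Il10 against the same lists from the other side, so it is not independent of the comparison by Il10 UMIs. It is not given within depth groups.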

How the results depend on the processing

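No paired analysis was possible because each tissue had 1 library. Over 114 alternatives, 48 values left the main counting interval with the same sign, 12 changed sign and 54 did neither or, for the count of genes, stayed within 1.5 times the main count; the cause was not tested. The count of genes at least 1.5-fold higher in spleen went from 29 (2-fold limit) to 42 (mean UMIs per barcode), against 38.

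With the ranges of UMIs taken as a mean, spleen against small intestine kept its direction in every alternative run. The main log2 ratios were 1.29 for the S-phase list and 0.999 for the G2/M list. These log2 ratios were 1.41 and 1.19 with 3 MAD filters, 1.41 and 1.22 without the deepest 5% of barcodes, 1.43 and 1.11 without barcodes holding both CD8 genes, 2.01 and 1.72 as mean UMIs per barcode, and 1.15 and 1.05 after thinning. They were 0.39 and 0.27 as a mean within ranges of UMIs and 0.28 and 0.58 in Ccl5-low barcodes. Without barcodes holding a Foxp3 UMI they were 1.16 and 0.84. In the single ranges, from shallow to deep, the G2/M list had 0.74, 0.07 (-0.003 to 0.14) and -0.01 (-0.09 to 0.07). The S-phase list had 0.26, 0.48 and 0.42 there.

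The ratio with and without a Foxp3 UMI over both lists in spleen (0.48) was 0.27 without the deepest 5% of barcodes, 1.04 per barcode, 0.45 centred on all genes, 0.15 as a mean within 3 depth groups, 0.17 with Foxp3 called after thinning, 0.57 in Ccl5-low barcodes and 0.53 with mRFP. In small intestine (0.14) it was -0.85 with 3 MAD filters, -0.48 without the deepest 5%, 0.59 per barcode, -1.06 within depth groups, -0.88 with Foxp3 called after thinning and -0.57 with mRFP.

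For Ccl5-high against Ccl5-low in spleen (-0.13) it was 0.13 without the deepest 5%, -0.34 per barcode and 0.26 within depth groups. In small intestine (-0.84) it was -0.57 with 3 MAD filters, 0.11 without the deepest 5%, -1.01 without the CD8 barcodes, -1.09 per barcode, -0.69 centred, 0.26 within depth groups and -0.077 with the Ccl5 limit at 5 per 10000.

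For 2 or more against 0 Il10 UMIs in spleen (0.07) it was 0.0025 without the deepest 5%, 0.21 per barcode and 0.022 centred. It was 0.016 within depth groups, 0.73 with 3 or more UMIs as deposited, and 0.14 and 0.10 with other thinning draws. Without barcodes holding a Foxp3 UMI it was -0.0059. In small intestine (-0.30) it was -0.012 with 3 MAD filters, 0.17 without the deepest 5%, 0.064 with 3 or more UMIs as deposited, and -0.70 and -0.57 with other draws.

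Cycling shares of 33.4% in spleen and 14.6% in small intestine were 30.4% and 12.5% without the deepest 5%, 44.7% and 26.3% after thinning, 54.0% and 40.2% with a limit of 5 per 10000, and 26.4% and 8.03% with 20 per 10000. Depth limits the low genes most: Cdc6 and Mybl2 had 24 UMIs each in small intestine.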

Other observations

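Replication-dependent histone genes, whose RNA is made in S phase and mostly lacks a poly(A) tail, were highest in the class high for both lists. The 65 Hist1h and Hist2h genes in spleen summed to 196 CPM in barcodes high for neither list, 516 CPM in the S-phase only class, 4290 CPM in the class high for both and 766 CPM in the G2/M only class, and in small intestine to 218, 267, 4532 and 620 CPM. Hist1h2ap, a histone H2A gene, was at 25.4, 153, 2229 and 284 CPM in spleen. In small intestine Hist1h2ap was at 17.0, 8.24, 2347 and 102 CPM in the same 4 classes. The S-phase only class held 3 UMIs there. Its interval (1.70 to 24.1 CPM) overlapped with that of barcodes high for neither list (13.4 to 21.3 CPM), so no rise was seen in it. Cycling barcodes of small intestine were at 1017 CPM and other barcodes at 17.0 CPM, 59.7-fold (47.4 to 76.3). Of the 1073 UMIs in these cycling barcodes, 1045 came from the class high for both lists.

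Among genes outside all lists, the ratio of cycling to other barcodes was largest for the following. In spleen Spag5, a spindle protein, had 126 UMIs in cycling and 0 in other barcodes, at least 51.1-fold higher when 3 UMIs stand for the 0 of that group. Aunip, Lrr1, Parpbp and Troap also had 0 UMIs in other barcodes and were at least 36.1-fold, 27.6-fold, 27.2-fold and 29.2-fold higher. Pbk (165-fold, 45.2 to 1370), Mxd3, Nek2, Apitd1 and Aspm had 1 or 2 UMIs in other barcodes. In small intestine Neil3, a DNA glycosylase, had 55 UMIs in cycling and 0 in other barcodes, at least 78.6-fold higher, and Cit, citron kinase of cytokinesis, was 98.6-fold higher (44.2 to 273). Cenph, Fam64a, Casc5, Shcbp1, Ska1 and Sapcd2 were also among the 10 largest in small intestine.

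The lists of G1 and quiescence genes had small or negative ratios. The list of G1 cyclins, CDKs and CDK inhibitors also holds E2f2, E2f7, E2f8, Myc, Rb1, Rbl2, Tfdp2 and Lin54. Its summed log2 ratios of cycling to other barcodes were 0.01 (-0.04 to 0.05) in spleen and 0.06 (-0.02 to 0.14) in small intestine. Drivers and inhibitors of the cycle are summed there, so a ratio near 0 does not describe its single genes. For 10 quiescence genes the ratios were -0.58 and -0.35. Between the tissues Cdkn1a, the CDK inhibitor p21, was at 34.0 CPM in spleen and 237 CPM in small intestine (log2 ratio -2.80), and Rbl2, a pocket protein of the DREAM complex, at 15.9 and 73.4 CPM (-2.21). Cdkn1b, the CDK inhibitor p27, was at 41.3 and 73.4 CPM (-0.83). E2f8 had the highest ratio of that list (7.30 and 1.26 CPM, 2.54), followed by Myc, a driver of growth (70.0 and 17.2 CPM, 2.02), and E2f2 (14.6 and 4.13 CPM, 1.82). Of the quiescence genes Tob1 (10.9 and 65.3 CPM, -2.59) and Btg2 (117 and 450 CPM, -1.94), both antiproliferative, and Tsc22d3 (106 and 384 CPM, -1.86) were lower in spleen, and Klf2, which keeps naive T cells at rest and recirculating, was higher (283 and 25.3 CPM, 3.48), as was Slfn2 (694 and 394 CPM, 0.82). Foxp1, the next in order, was at 210 and 230 CPM (-0.13). For these genes too, tissue and cell isolation cannot be told apart. With a Foxp3 UMI in spleen 6 of 10 quiescence genes were at least 1.5-fold lower, beside 7.06% of all genes tested, and Cdkn1a was at 17.6 and 40.1 CPM (-1.19). Barcodes with a Foxp3 UMI were deeper than the others (medians of 7964 and 5204 UMIs) and more often cycling (48.8% and 29.4%). The comparison of these genes is not given within depth groups.

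Among other genes named, Ctla4, an inhibitory receptor of activated and regulatory T cells, was higher in cycling barcodes of spleen (1923 and 1184 CPM, log2 ratio 0.70), while in small intestine it was at 1330 and 1398 CPM (-0.07, -0.16 to 0.01). Lag3, another inhibitory receptor, was at 1099 and 1174 CPM in spleen and 1724 and 2444 CPM in small intestine. The CD8 genes summed to 580 CPM in cycling and 329 CPM in other barcodes of small intestine (0.82, 0.68 to 0.95).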
